A study of Mus musculus with 6 samples.

Results

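The insulin-like growth factor (IGF) axis was followed across 10 genes, the ligand IGF2, the receptors IGF1R and IGF2R and the binding proteins IGFBP1 to IGFBP7, out of 18630 genes that had a row of their own on the array. Members were taken by gene symbol from rows with a single symbol. Rows were selected on the highest mean of the 6 signals per symbol, but each of the 10 symbols had 1 such row, so no measured value decided between rows. Total RNA came from subcutaneous tumours of Lewis lung carcinoma (LLC) cells, a transplantable mouse lung cancer line, grown from 1000000 cells mixed with Matrigel in the flank of mice. The 3 samples labelled control are described as having had no anti-PD-1 antibody, and the shared protocol gives them an IgG2a isotype antibody. The 3 samples labelled anti-PD-1 received an antibody against PD-1, a receptor that restrains T cells, and both antibodies were injected into the peritoneum at 250 µg every 3 days. The design text instead speaks of LLC cells that had survived for 7 days after the antibody and of cells left untreated, so whether tissue or isolated cells were profiled is unsettled. Genotype, strain and age of the mice are not given in the sources used here, and no label ties a replicate to an animal of its own, so the spread behind each p-value may be technical.

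IGF1 and IGF2 act through IGF1R, a tyrosine kinase that signals through the IRS adaptors to PI3K and AKT and holds FOXO transcription factors in the cytoplasm. IGF2R has no kinase of this kind: it takes IGF2 into the cell for degradation and carries lysosomal enzymes that bear mannose 6-phosphate. IGFBP1 to IGFBP6 bind the growth factors tightly, keep them from the receptor or deliver them to it, and are cut by proteases such as PAPP-A, whereas IGFBP7 binds them weakly and is best known as a secreted protein of vessel walls and matrix. Tumour cells, fibroblasts and vessel cells can all make these proteins.

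The identity of the rows and the direction of each difference carry reservations. A mouse array on mm10 is named in the file headers, but 10 of 10 members carried human Ensembl transcript accessions and 0 carried a RefSeq transcript of the mouse gene table. The row identifiers, which begin with a chromosome, named the chromosome of the mouse gene in 0 of 10 members and the chromosome in the file in 4 of 10. Symbols are used as the file gives them, with the species of the rows unsettled. Each difference is the anti-PD-1 mean minus the control mean in log2 signal, with groups as the samples are labelled, although the group averages in the authors' deposited table carry exchanged letters, as set out below for the members. In 111 of 21448 rows the authors' averages or SDs did not follow from Tukey's biweight, a robust mean, and the SD of the signals (tolerances of 0.05 and 0.02), and IGF1R is 1 of these rows in conflict. The array medians ran from 7.71 to 7.77, and 3 arrays a group limit the precision of every value. In these bulk samples fewer cells of a type and less RNA per cell cannot be told apart.

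The binding proteins split into opposite directions. IGFBP5, IGFBP7 and IGFBP3 rose in the samples labelled anti-PD-1, by 33.7-fold, 15.9-fold and 4.89-fold, while IGFBP6, IGFBP2 and IGFBP4 fell by 4.43-fold, 4.17-fold and 2.9-fold. With IGF2R, which rose by 1.54-fold, 7 of the 10 members passed an adjusted p of 0.05 in limma, 4 of them higher and 3 lower. Over all rows 29.8% passed, 14.7% higher and 15.1% lower. A change of at least 2-fold that also passed was found in 6 of 10 members and in 7.64% of all rows. Members were singled out with earlier results of these data known, so these counts describe them and are not independent evidence. The absolute difference had a median of 2.15 over the 7 binding proteins, 1.8 over all 10 members and 0.24 over all rows, whereas the signed median was 0.1 over the members and 0.01 over all rows.

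**Figure D1:**
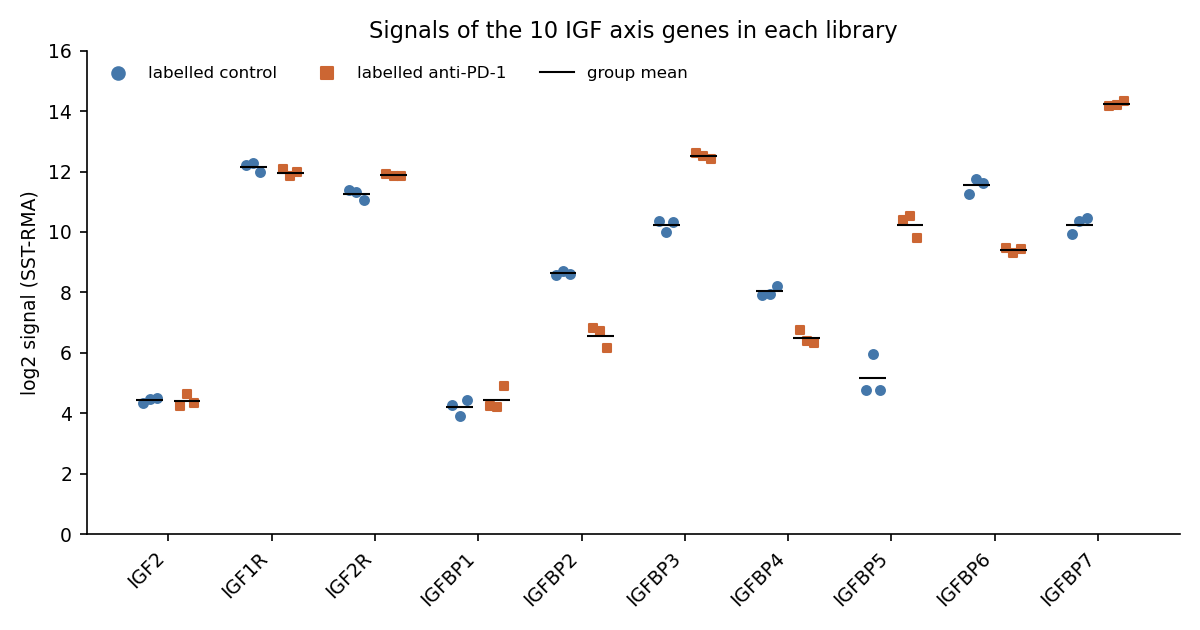
Log2 signal (SST-RMA, vertical axis) of each of the 10 genes in the 3 samples labelled control (circles) and the 3 labelled anti-PD-1 (squares), with group means as lines. IGFBP5 went from a mean of 5.17 to 10.25 and IGFBP7 from 10.24 to 14.23, while IGFBP2, IGFBP4 and IGFBP6 lay lower in every anti-PD-1 sample; heights are not comparable between genes.

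IGFBP5, a binding protein that attaches to matrix and bone mineral, had signals of 4.78, 5.96 and 4.78 in control replicates 1 to 3 and of 10.41, 10.54 and 9.79 in anti-PD-1 replicates 1 to 3. Control replicate 2 stood above the other two controls, and a gap of 3.83 still parted the highest control from the lowest anti-PD-1 sample. The difference was 5.07 ± 0.36 (SE, limma, adjusted p = 9.34e-05), the sixth largest rise among the 21448 rows, and 5.47 without control replicate 2. Control replicates 1 and 3 lay below 5.08, the level under which 25% of rows had their mean, and no array background was used here, so the fold from so dim a control level is uncertain and may be a lower bound.

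IGFBP7 gave 9.92, 10.35 and 10.45 in the controls and 14.16, 14.2 and 14.33 in the anti-PD-1 samples. The anti-PD-1 samples were the tighter group (SD 0.09 against 0.28, n = 3 each), and the groups were 3.71 apart at their nearest values. The difference was 3.99 ± 0.15 (SE, limma, adjusted p = 1.14e-05), rank 23 among rises.

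IGFBP3, the main carrier of IGFs in blood, which also binds them at the cell surface, gave 10.35, 10 and 10.32 in the controls and 12.63, 12.5 and 12.41 in the anti-PD-1 samples. No sample of one group came within 2.06 of the other. Its difference was 2.29 ± 0.12 (SE, limma, adjusted p = 3.42e-05), rank 146 among rises.

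IGFBP6, which prefers IGF2 to IGF1, moved the other way. Its signals were 11.26, 11.77 and 11.62 in the controls and 9.47, 9.3 and 9.44 in the anti-PD-1 samples, with a mean of 11.55 ± 0.26 against 9.4 ± 0.09 (SD, n = 3 each). The difference of -2.15 ± 0.14 (SE, limma, adjusted p = 7.57e-05) was the largest fall of the 10 members and held rank 104 among all falls.

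IGFBP2, whose RGD sequence can bind integrins, gave 8.56, 8.72 and 8.6 in the controls and 6.83, 6.72 and 6.15 in the anti-PD-1 samples. The controls lay within a narrow band and anti-PD-1 replicate 3 was lowest of all. The difference was -2.06 ± 0.18 (SE, limma, adjusted p = 0.000238).

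IGFBP4, an inhibitory binding protein and the classic substrate of PAPP-A, gave 7.93, 7.96 and 8.2 in the controls and 6.76, 6.4 and 6.32 in the anti-PD-1 samples. The groups were 1.17 apart at their nearest values, the smallest gap among the 6 binding proteins that changed. The difference was -1.54 ± 0.14 (SE, limma, adjusted p = 0.000319).

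IGFBP1, the liver-made binding protein that insulin represses, did not pass. Its signals of 4.26, 3.91 and 4.44 in the controls and 4.23, 4.21 and 4.89 in the anti-PD-1 samples overlapped and lay among the dimmest 25% of rows, below 5.08. The difference of 0.24 had a 95% interval from -0.28 to 0.76 (limma, adjusted p = 0.485), and a smaller change was not detectable at this signal.

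Of the ligand and receptors, IGF2R alone passed. It gave 11.38, 11.32 and 11.06 in the controls and 11.93, 11.85 and 11.86 in the anti-PD-1 samples, so every anti-PD-1 sample was above every control, by 0.47 at the nearest. The difference was 0.63 ± 0.11 (SE, limma, adjusted p = 0.00501).

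IGF1R gave 12.23, 12.28 and 11.99 in the controls and 12.07, 11.85 and 11.98 in the anti-PD-1 samples, bright in both groups and overlapping. The difference of -0.2 had a 95% interval from -0.47 to 0.07 (limma, adjusted p = 0.249). No direction is drawn from it, because its row is in conflict with the authors' deposited table. There the SD named P was 0.05 where the control signals, to which that letter otherwise corresponds, have an SD of 0.16. The fold change was -1.36 in the authors' deposited table, while its averages imply 1.2, and its false discovery rate was 0.13, while its p of 0.01 gives 0.0367 by Benjamini-Hochberg over that table.

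IGF2 was among the dimmest 25% of rows, with signals of 4.35, 4.48 and 4.52 in the controls and 4.24, 4.65 and 4.35 in the anti-PD-1 samples. The difference of -0.04 had a 95% interval from -0.34 to 0.26 (limma, adjusted p = 0.868). A row shared by IGF2 and the INS-IGF2 readthrough (means 4.9 and 4.93) and the row of the antisense transcript IGF2-AS (5.8 and 5.79) did not pass either (limma, adjusted p = 0.891 and 0.97). The file does not say whether strand-specific probes separate IGF2 from its antisense.

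**Figure D2:**
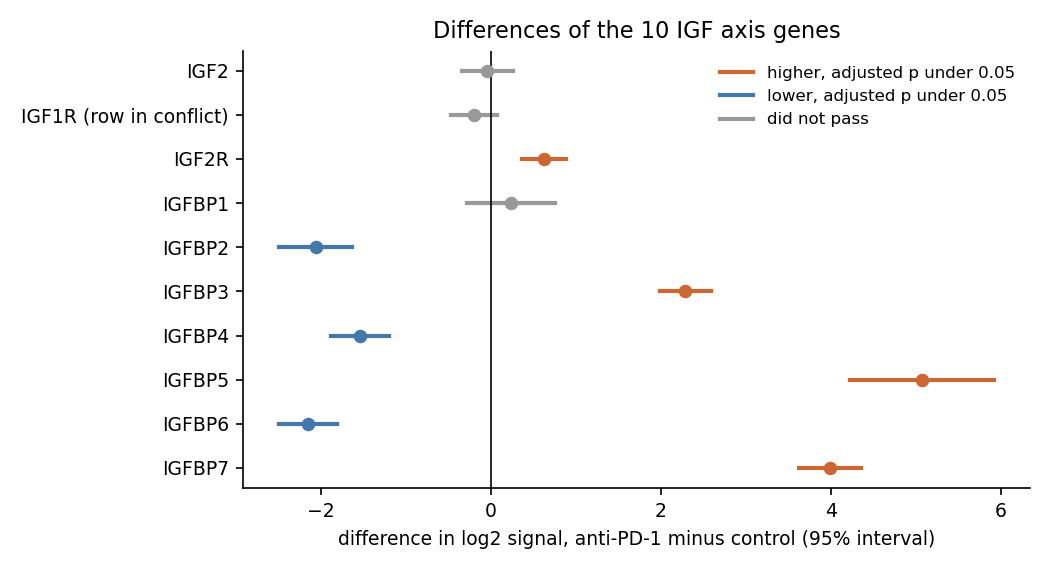
Difference in log2 signal between samples labelled anti-PD-1 and control (points) with 95% intervals from limma (lines), for each of the 10 genes. Intervals of IGF2, IGF1R and IGFBP1 include 0, and those of IGFBP5 (4.23 to 5.92) and IGFBP7 (3.63 to 4.35) lie farthest from it.

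Groups did not overlap in 7 of 10 members, the same 7 that passed, and in 43.5% of all rows. Within groups the members varied about as other rows did, with a median SD of 0.2 against 0.16 over all rows. IGFBP5 had the widest control group (SD 0.68) and IGF2R the narrowest anti-PD-1 group (SD 0.04). Anti-PD-1 replicate 3 held the lowest of the 3 anti-PD-1 values for IGFBP2, IGFBP3, IGFBP4 and IGFBP5 and the highest for IGFBP1 and IGFBP7. Without any 1 of the 6 samples, all 7 members kept their call and direction.

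**Figure D3:**
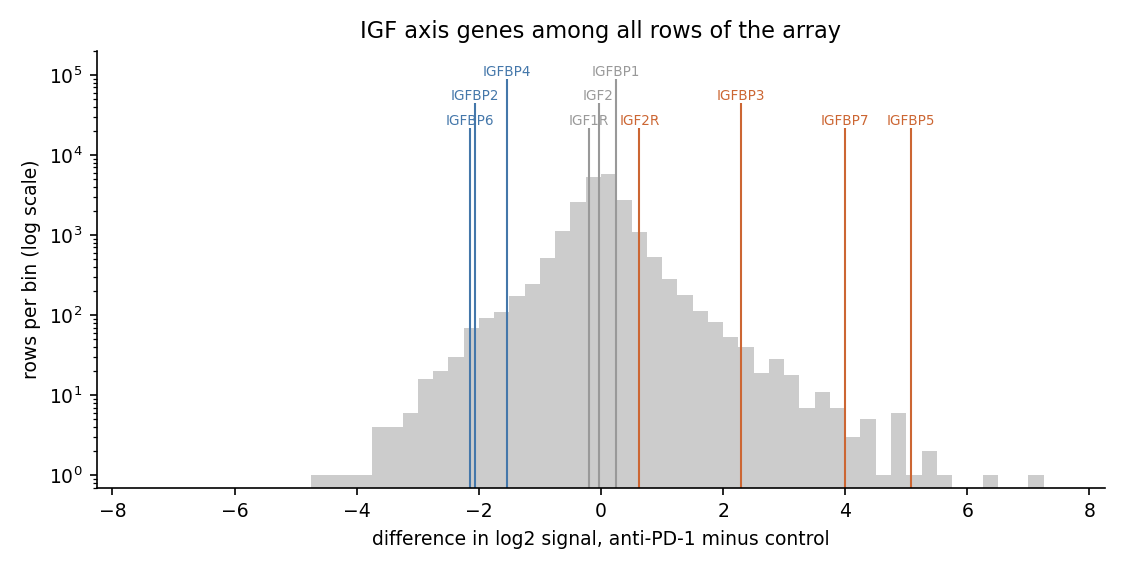
Number of rows (vertical axis, log scale) by difference in log2 signal, anti-PD-1 minus control (horizontal axis), over all 21448 rows, with a line at each of the 10 genes; line heights only separate the names. IGFBP5 and IGFBP7 lie in the upper tail, IGFBP2, IGFBP4 and IGFBP6 in the lower, and IGF2, IGF1R and IGFBP1 near 0.

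Of the 7 binding protein genes 4 lie in neighbouring pairs, and in 1 pair the genes changed in opposite directions. In the deposited file IGFBP2 lies on chromosome 2 from 216632828 to 216664436 on the plus strand and IGFBP5 from 216672105 to 216695549 on the minus strand, 7668 bases apart and tail to tail, with 0 other rows between them. IGFBP2 fell and IGFBP5 rose. IGFBP1 and IGFBP3 are likewise neighbours on chromosome 7, 18575 bases apart, and of these IGFBP3 alone passed. The headers name mm10, but these positions are not those of the mouse genes of the same names, which lie on other chromosomes. The accessions of the rows are human, and which build the positions follow was not settled here. The mouse genes of the same names are neighbours as well in RefSeq (GRCm38.p6): Igfbp2 (72824480 to 72852474) and Igfbp5 (72858065 to 72874865) on chromosome 1 are 5590 bases apart, and Igfbp1 and Igfbp3 on chromosome 11 are 3539 apart.

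To let the start regions of IGFBP2 and IGFBP5 be compared, the 250 bases before the annotated start of each mouse gene are given from RefSeq (GRCm38.p6), 5′ to 3′ on the gene's strand. All 10 members matched a mouse gene by symbol, but the measured rows carry human accessions, so these are promoters of the mouse genes of the same name and not of the rows. Igfbp2 has a second annotated start, whose window is described below but not shown. Capitals mark matches, on either strand, to 5 motifs: the GC box GGGCGG, the TATA box TATAAA, the TEAD core GGAATG, the forkhead motif TGTTTAC and the AP-1 motif TGACTCA.
Igfbp2, chr1:72824230-72824479, plus strand: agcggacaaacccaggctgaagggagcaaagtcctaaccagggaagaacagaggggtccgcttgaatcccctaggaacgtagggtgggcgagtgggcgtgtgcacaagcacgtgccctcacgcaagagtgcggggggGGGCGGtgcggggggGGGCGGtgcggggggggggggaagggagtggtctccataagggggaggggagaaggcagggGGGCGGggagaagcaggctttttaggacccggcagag
Igfbp5, chr1:72874866-72875115, minus strand: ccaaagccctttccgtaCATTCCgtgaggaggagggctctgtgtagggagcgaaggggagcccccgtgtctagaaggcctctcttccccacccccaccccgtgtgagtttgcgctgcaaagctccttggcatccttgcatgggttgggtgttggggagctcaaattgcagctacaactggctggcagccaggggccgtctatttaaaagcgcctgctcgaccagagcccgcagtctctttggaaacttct

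The Igfbp2 window shown held 3 GC boxes and none of the other 4 motifs, whereas that of its second start held 1 AP-1 motif and 0 GC boxes, and the Igfbp5 window held 1 TEAD core and none of the others. Of 32851 mouse windows of the same length, 32.7% held a GC box, 12.6% a TEAD core, 12.4% a TATA box, 4.46% an AP-1 motif and 3.17% a forkhead motif. Among the other binding proteins that changed, the Igfbp7 window had 4 GC boxes, those of Igfbp4 and Igfbp6 had 1 TATA box each, and that of Igfbp3 had no match. GC content was 67.2% for the shown window of Igfbp2 and 56.4% for the other, 58.8% for Igfbp5, 73.2% for Igfbp3, 69.2% for Igfbp4, 49.6% for Igfbp6 and 74% for Igfbp7, against a median of 52.4% over all windows. These matches are letters in mouse sequence, and no binding was measured. Only the exact letters of each motif were searched, so variants, of the TATA box for example, were not counted.

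The genes most like the extremes of the family were named by Pearson's r over the 6 samples, among 9893 other genes with a mean at or above the median of all rows. This r takes no account of the size of a difference. PJA2 (r = 0.9988), PELI1 (r = 0.9986) and VPS39 (r = 0.9986) came closest to IGFBP5, but differed by 0.44, 2.58 and 0.82 where IGFBP5 differed by 5.07. HMGB2 (r = 0.9996), H1F0 (r = 0.9995) and CYC1 (r = 0.9992) came closest to IGFBP6, with differences of -1.18, -1.31 and -0.87 beside its -2.15. The 6 points share the split into groups, and 1432 and 1466 of the 9893 genes reached an r of 0.95 with IGFBP5 and IGFBP6.

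The authors' deposited table gives the same members with the letters exchanged. IGFBP5 has an average of 10.47 named C and 4.78 named P in the authors' deposited table, with a fold change of 51.49, while the signals named C average 5.17. Tukey's biweight of the signals, 10.47 in the anti-PD-1 samples and 4.78 in the controls, gives a fold of 51.6, against means of 10.25 and 5.17. For IGFBP7 the authors' deposited table gives a fold change of 14.26, for IGFBP3 of 4.52 and for IGF2R of 1.43, all higher in the group it names C. For IGFBP6 it gives -4.38, for IGFBP2 -3.57 and for IGFBP4 -2.99 (authors' deposited table). If the letters of those averages are right, each rise reported here is a fall and each fall a rise.

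Around the 10 members, 115 of 124 listed genes of IGF binding, signalling and response were measured, and 41.7% passed (32 higher, 16 lower), against 29.8% of all rows. The median difference was 0.08, beside 0.01 over all rows. The share that passed was 66.7% among FOXO targets, 60% among partners of the binding proteins, 50% among other proteins with an IGFBP-type domain, 46.2% among IGFBP proteases and their inhibitors and 29% in the PI3K, AKT and mTOR relay. In that order, 12 of 18, 14 of 15, 4 of 12, 6 of 13 and 25 of 31 were at or above the median signal. Brighter rows passed more often. With rows dimmer than the median left out, 6440 of 10725 rows passed, beside 49 of 79 listed genes. Those shares are close, so 29.8% is not a background of like brightness for the listed genes. Among the rises counted in these lists, ADAM28 (1.3) of the proteases, SPP1 (0.71) of the partners and CAT (0.35) of the FOXO targets each lost the call in 4 of 7 refits, 6 that left out 1 sample and 1 with a replicate block (limma, adjusted p up to 0.115, 0.0803 and 0.0632).

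Ligands and receptors beyond the members did not pass. IGF1 had means of 6.3 and 6.19 in control and anti-PD-1 samples, IGFALS, which holds IGFs in the blood complex, 5.48 and 5.54, and INSRR 4.77 and 4.6. INSR, the insulin receptor, had means of 8.21 and 8.13. The rows of IGF1 and INSR are in conflict, and INS had only a row shared with the INS-IGF2 readthrough (4.41 and 4.29).

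Of 13 IGFBP proteases and their inhibitors 4 rose and 2 fell, with a list median of 0.27. PAPPA, the protease that cuts IGFBP4 and IGFBP5, had a difference of 2.3 ± 0.27 (SE, limma, adjusted p = 0.000891), and STC2, a stanniocalcin that inhibits it, one of 2.03 ± 0.1 (adjusted p = 2.23e-05). The other inhibitor of this kind, STC1, fell (-0.86 ± 0.08, adjusted p = 0.00032). HTRA1, a secreted serine protease that itself carries an IGFBP-type domain, rose by 1.66, and the collagenase MMP1 fell by 1.67. The related PAPPA2 stayed among the dimmest 25% of rows, at 3.91 and 3.85.

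Of 12 other proteins with an IGFBP-type domain 5 rose and 1 fell, with a list median of 0.17. The rises were in WISP2 (3.08), CTGF (2.34), CYR61 (1.16), the cysteine-rich transmembrane protein CRIM1 (1.16) and IGFBPL1 (2.1). WISP2, CTGF, CYR61 and NOV are matricellular proteins of the CCN family, and NOV fell (-0.59). IGFBPL1, a relative of IGFBP7, went from a mean of 6.13 to 8.23 (limma, adjusted p = 0.000325).

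Partners and receptors of the binding proteins gave 6 rises and 3 falls among 15 measured genes, with a list median of 0.26. VTN, the matrix protein vitronectin that binds IGFBP5, rose by 3.3 ± 0.23 (SE, limma, adjusted p = 8.96e-05), LRP1, an endocytic receptor for IGFBP3, by 2.23 ± 0.2 (adjusted p = 0.000268), and THBS1, the matrix protein thrombospondin, by 1.58. FHL2, a LIM-domain cofactor that binds IGFBP5, fell by 2.78 ± 0.1 (limma, adjusted p = 9.59e-06). ITGB1 (-0.52) and ITGA5 (-0.43), the subunits of the fibronectin receptor that IGFBP2 can bind, also fell, but the ITGA5 call was lost without any 1 sample other than control replicate 1 (limma, adjusted p up to 0.123). CD93, a receptor for IGFBP7, was among the dimmest 25% of rows at 3.79 and 4.03. Of the 15 rows 3 are in conflict, among them ITGAV and ITGB3, which did not pass.

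**Figure D4:**
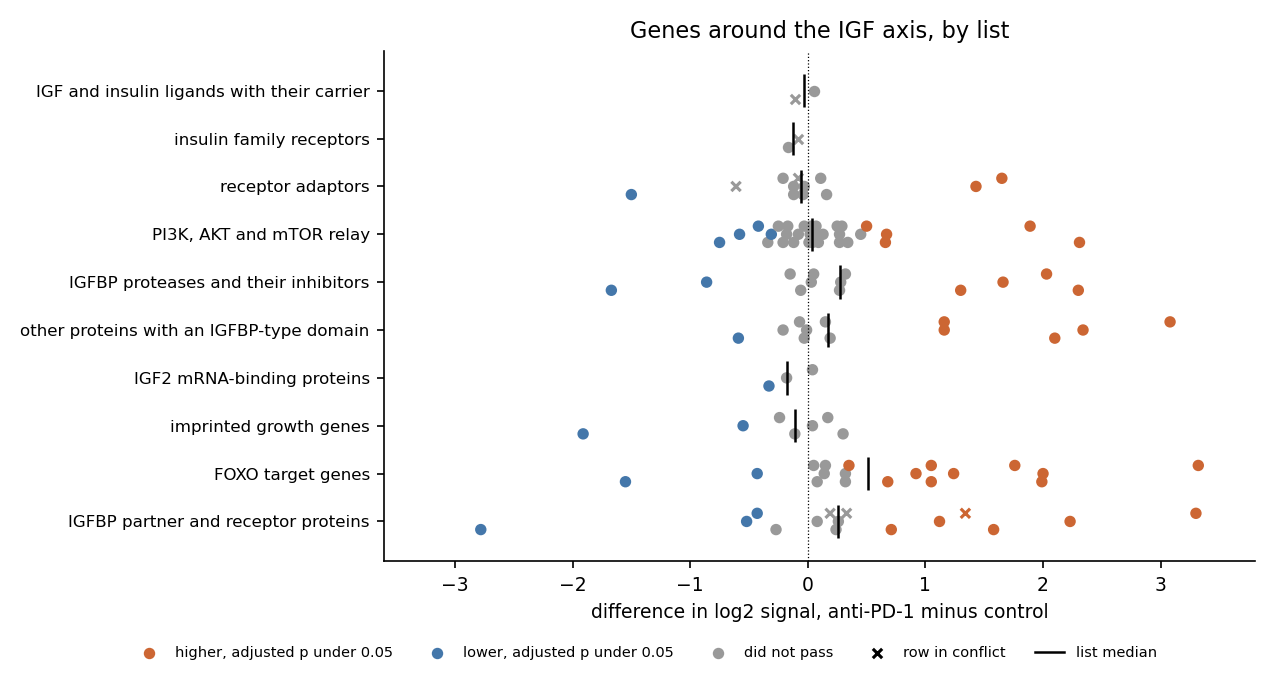
Difference in log2 signal, anti-PD-1 minus control (horizontal axis), for each measured gene of 10 lists around the IGF axis (rows), coloured by direction where the adjusted p was under 0.05; crosses are rows in conflict and black lines list medians. The FOXO target list has the highest median, 0.51, with PIK3IP1 at 3.32 as its largest rise and PDK4 at -1.55 as its largest fall.

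Below the receptor, 2 of 12 adaptors rose and 1 fell, 25% against 29.8% of all rows, though 9 of the 12 were at or above the median signal, where rows passed more often. The 2 main IRS proteins went opposite ways. IRS1 fell by 1.5 ± 0.13 (SE, limma, adjusted p = 0.000229), from a mean of 8.99 to 7.49, and IRS2 rose by 1.43 ± 0.11 (adjusted p = 0.000161), from 7.21 to 8.63. GAB1, a docking protein of several receptor kinases, rose by 1.65. SOS1 and SOS2, which did not pass, are rows in conflict.

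Of 31 measured genes of the PI3K, AKT and mTOR relay 5 rose and 4 fell, 29% against 29.8% of all rows. However, 25 of the 31 were at or above the median signal. With rows dimmer than the median left out, 6440 of 10725 rows passed, so 29.8% is not a background of like brightness for the relay. Of the falls, RHEB (-0.31) lost its call without any 1 sample and AKT2 (-0.42) without any 1 sample other than control replicate 3 (limma, adjusted p up to 0.114 and 0.0609), and RHEB also with a replicate block. The largest rises were DEPTOR, a protein that binds and inhibits mTOR (2.31 ± 0.14 SE, limma, adjusted p = 5.68e-05), and PIK3R3, a regulatory subunit of PI3K (1.89), followed by the phosphatase gene INPPL1 (0.67). The largest fall was PHLPP2, an AKT phosphatase (-0.75). AKT1 differed by 0.01 and did not pass (limma, adjusted p = 0.953).

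Among 18 FOXO target genes 10 rose and 2 fell, and 66.7% passed against 29.8% of all rows, with a median of 0.51. Of the 18, 12 were at or above the median signal, where rows passed more often. PIK3IP1, an inhibitor of PI3K, rose by 3.32 ± 0.23 (SE, limma, adjusted p = 8.96e-05), CCNG2, an unconventional cyclin of arrested cells, by 2 ± 0.11 (adjusted p = 4.14e-05), KLHL24 by 1.99 and CITED2 by 1.76. PDK4, the pyruvate dehydrogenase kinase (-1.55), and BCL2L11, the apoptosis gene BIM (-0.43), fell. Liver targets of FOXO, PCK1 (6.86 and 6.94) and G6PC (3.75 and 3.8), did not pass, as IGFBP1 did not. Many of these genes also answer to other factors.

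IGF2BP2, a protein that binds IGF2 messenger RNA, fell by 0.33, a call lost with a replicate block and without any 1 sample other than anti-PD-1 replicate 3 (limma, adjusted p up to 0.0925), and IGF2BP3 and IGF2BP1 did not pass. Of 7 measured imprinted growth genes 2 fell and 0 rose, 28.6% against 29.8% of all rows, though 6 of the 7 were at or above the median signal, where rows passed more often. PHLDA2 differed by -1.91 and MEST by -0.55. The MEST call was lost without control replicate 3 or any 1 anti-PD-1 sample (limma, adjusted p up to 0.0957).

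Markers of other cells that make binding proteins were read beside these results. Of 9 pericyte and smooth muscle markers 4 rose and 0 fell, with CNN1 at 6.46, TAGLN at 3.71, PDGFRB at 1.26 and DES at 1.01. The share that passed was 44.4%, against 29.8% of all rows, and 4 of the 9 were at or above the median signal. The summed log2 signals of the 9 markers were 64.41 to 65.44 in the controls and 77.55 to 78.69 in the anti-PD-1 samples. MYH11 (5.49 and 5.26), CSPG4 (4.23 and 4.16) and ACTA2 (9.05 and 9.73) did not pass. CSPG4 was among the dimmest 25% of rows, PDGFRB and DES lay below the median signal, and ACTA2 is a row in conflict. Of 9 fibroblast markers 1 rose, COL1A2 (3.15), and 4 were among the dimmest 25% of rows, including FAP, POSTN, THY1 and LUM. That was 11.1% passing, against 29.8% of all rows. The fibroblast sum ran from 56.79 to 57.5 in the controls and from 60.39 to 60.93 in the anti-PD-1 samples, but without COL1A2, left out after its value was seen, the other 8 gave 46.26 to 46.92 and 46.67 to 47.27, which overlap, and the list median was 0.09. CNN1 and TAGLN were also left out after their values were seen. The other 7 pericyte and smooth muscle markers, ACTA2 among them, then gave 44.78 to 45.99 and 47.71 to 48.98. The part of these markers in the rises of IGFBP3, IGFBP5 and IGFBP7 was not tested.

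Of 11 endothelial markers 0 rose and 1 fell, ESAM (-0.52), and PECAM1, CDH5, TEK, EMCN and PLVAP were among the dimmest 25% of rows. The endothelial sum was 58.98 to 60.88 in the controls and 59.5 to 61.45 in the anti-PD-1 samples, which overlap. Of 13 macrophage markers 1 rose and 1 fell, with sums of 77.65 to 80.07 and 77.9 to 79.67. Among 10 T cell markers 1 rose and 1 fell (sums of 44.23 to 45.93 and 45.26 to 46.3). For 7 adipocyte markers 0 rose and 1 fell, PPARG (-1.68), the 1 marker of that list at or above the median signal. Another 4 were among the dimmest 25% of rows. The adipocyte sums, 38.49 to 40.47 and 37.19 to 38.1, did not overlap, but no sum without PPARG was taken. The shares that passed were 9.09% of endothelial, 15.4% of macrophage, 20% of T cell and 14.3% of adipocyte markers, against 29.8% of all rows. T cell genes CD3D (3.7 and 3.81) and CD8A (3.75 and 3.73) and the macrophage gene ADGRE1 (3.62 and 3.79) were among the dimmest 25% of rows. The T cell rise, CD5 (0.37), lost its call with a replicate block and without control replicate 2 or 3 or anti-PD-1 replicate 1 or 3 (limma, adjusted p up to 0.0763). The T cell fall, CD4 (-0.46, means 5 and 4.53), was among the dimmest 25% of rows. It kept its call in all 7 of these refits (limma, adjusted p up to 0.0398). Of the macrophage markers 3 were at or above the median signal of all rows: CD68 fell by 1.64, from 14.4 to 12.76, CD14 rose by 1.19, from 7.4 to 8.59, and CSF1R (9.41 and 8.99) did not pass. Epithelial keratins were bright, with KRT8 at 16.17 and 16.47 and KRT18 at 14.79 and 14.97, and of 8 epithelial markers 2 rose and 2 fell. That was 50% against 29.8% of all rows, with 7 of the 8 at or above the median signal. OCLN rose (1.51) and EPCAM (-0.6) and ESRP1 (-0.47) fell, while the KRT8 rise of 0.3 was lost without any 1 sample (limma, adjusted p up to 0.0827). CDH1 (5.86 and 5.02) did not pass and is a row in conflict.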

How the data were processed

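Per array row, the authors deposited a log2 signal summarised with SST-RMA, per the file headers, for 6 samples in 2 groups. The submitters' processing notes name Transcriptome Analysis Console without a version. The authors' deposited table adds averages and SDs on the log2 scale, p-values with false discovery rates, and a signed fold change, treated as a score. Both deposited tables held equal signals (largest difference 0). Of 22206 identifiers 21448 had values and were tested as deposited. No scanner intensities were used.

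Groups came from the sample labels. All 6 samples entered limma 3.58.1 (R 4.3.3) with group alone in the model, followed by eBayes, a 2-sided test and Benjamini-Hochberg adjustment over all rows, with a threshold of 0.05 and 95% intervals. The fit was also run on simulated data in which few rows were changed, unlike these data, so that run is no support for the calls here. A gene was read from its single-symbol row of highest mean. The members and lists were chosen with earlier results of these data known. Lists are described by counts and medians, with no set test. The rule for named genes took all members and rows that share their symbols. It took up to 4 genes per list with the largest called differences, the other ligands and receptors, examples by signal level, and the 3 genes most correlated with the extreme members. STC1, CYR61, NOV, ITGB1, ITGA5, PDK4, BCL2L11, RHEB, AKT2, ADAM28, SPP1, CAT, CD4, CD5, CD68, CD14, PPARG, EPCAM, ESRP1 and OCLN, and some genes that did not pass, were added after their values were seen. No label says that same-numbered samples are pairs, so the numbers were not used as pairs. Same-numbered samples did not deviate together (correlations 0.0128, -0.0238 and 0.0134), which with 3 samples a group does not settle whether they were pairs.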

Additional observations from a re-analysis of the deposited data

How the results depend on the processing

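Direction and call of the 7 members that passed were kept in every alternative that tested them: other normalizations, dim-row filters, 1 row per gene, another prior, array weights, a replicate block, each sample left out, the second table and, chosen after seeing the data, the rows in conflict left out. IGFBP5 ranged from 4.88 to 5.47, IGFBP7 from 3.83 to 4.09, IGFBP3 from 2.18 to 2.35, IGF2R from 0.53 to 0.69, IGFBP6 from -2.29 to -2.04, IGFBP2 from -2.19 to -1.85 and IGFBP4 from -1.67 to -1.45. IGF1R and IGFBP1 passed in none, and IGF2 went from -0.15 to 0.05 without 1 sample, its sign turning without anti-PD-1 replicate 1. After rows dimmer than the median were dropped, 4 of the 5 members still tested passed, fewer by construction, since IGFBP2, IGFBP4 and IGFBP5 lie below it. In that setting 6440 of 10725 rows passed, a larger share than the 29.8% of all rows. A 2-fold limit, also stricter by construction, left 6 members, 30 of the 48 listed genes and 1639 of the 6391 rows. Without each sample in turn 7 members, 41 to 44 listed genes and 4901 to 5452 rows passed. The other prior, trended and robust, raised the counts to 57 listed genes and 7540 rows, with 7 members. With rows below the 25th percentile left out, 7 of 8 members, 53 of 104 listed genes and 6890 of 16092 rows passed. The replicate block, on numbers that no label gives as pairs, gave 7 members, 44 listed genes and 5363 rows. Median centring gave 2778 rows higher and 3673 lower in place of 3160 and 3231, with the members' counts as before.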
